A study of Mus musculus with 4 samples.

Results

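Resting endothelial cells of the mouse lung on day 7 after PNX (pneumonectomy, the surgical removal of lung tissue) were compared with those of sham-operated lungs. The comparison held 3429 cells of WT PNX, from wild-type mice after PNX, and 4636 cells of sham, from wild-type mice after a sham operation, together 8065 of the 16883 barcodes of both libraries and of the 34683 barcodes in all 4. The other 2 libraries, M3cKO PNX and Foxo1cKO PNX, came from conditional knockout mice on the same day after PNX and are quoted only as levels. Lungs had been digested with collagenase, stripped of CD45-positive cells, and the CD31-positive cells collected on antibody-coated beads. The sources used here do not state the number, sex, age or strain of the animals, which gene M3 stands for, what drives the knockouts or the day on which sham lungs were taken. With 1 library per group there were no replicates, so no test and no spread between animals could be had, and the intervals printed are at 95% and cover counting error only.

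A cell was taken when it had at least 500 genes and at most 10% mitochondrial UMIs (unique molecular identifiers, which count transcripts), at least 2 UMIs over Pecam1, Cdh5, Cldn5, Egfl7, Ramp2 and Tie1, and no UMI of Ptprc, Epcam, Col1a1 and Col1a2, which mark blood cells, epithelium and fibroblasts. Cells with at least 2 UMIs over 10 mitotic genes, among them Mki67 and Top2a, were left out, 458 of them in WT PNX and 29 in sham. No gene of this rule is reported as a result. Levels are CPM, a gene's UMIs divided by all UMIs of the cells taken (10896389 in WT PNX and 10391130 in sham) times 1000000, and log2 ratios of WT PNX to sham carry a pseudocount of 5 CPM.

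The gas-exchanging wall of the lung is lined by general capillary cells, which can divide and renew the capillary bed, and by aerocytes, large Car4-high cells that lie over the thin air-blood barrier. Arteries, veins, lymphatics and the systemic vessels of the airways have endothelium of their own. After PNX in mice the remaining lobes grow, capillary endothelium multiplies, and endothelial cells are known to secrete matrix and signals to the neighbouring epithelium.

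The label endothelial cell held for most of the cells taken. Of endothelial genes that the rule did not use, the VEGF receptor Kdr stood at 1339 CPM in WT PNX against 1570.3 in sham and the angiopoietin receptor Tek at 759.6 in WT PNX against 760.5 in sham. Clustering nevertheless put 247 WT PNX cells (7.20%) and 121 sham cells (2.61%) into small clusters led by genes of platelets, lymphocytes or alveolar epithelium, or, in 2 WT PNX and 45 sham cells, by Ccl3, Ccl4, Il1b and Gzmb. The 7 platelet markers summed to 547 CPM in WT PNX against 41.3 in sham, and in the endothelial clusters alone to 79.4 in WT PNX against 15 in sham. The 9 alveolar type 2 markers summed to 991 CPM in WT PNX against 387 in sham, and in the endothelial clusters alone to 211 in WT PNX against 152 in sham. The 9 fibroblast markers summed to 129 CPM in WT PNX against 55.0 in sham, and in the endothelial clusters alone to 118 in WT PNX against 49.96 in sham. The 12 monocyte or macrophage markers summed to 324 CPM in WT PNX against 78.7 in sham, and in the endothelial clusters alone to 72.7 in WT PNX against 43.7 in sham. Other lists summed lower in WT PNX. Airway epithelial markers summed to 456 CPM in WT PNX against 747 in sham and alveolar type 1 markers to 498 against 613. Plasma cell markers summed to 10.6 CPM in WT PNX against 51.7 in sham and mesothelial markers to 11.9 against 15.8. Median depth was 2492 UMIs per cell in WT PNX and 1839 in sham. Xist stood at 146 CPM in WT PNX and had no UMI in sham. WT PNX held 641 male-type cells (a UMI of a Y-linked gene but none of Xist) and 863 female-type cells (the converse). Sham held 1187 male-type and 0 female-type cells, M3cKO PNX 712 and 0, and Foxo1cKO PNX 510 and 847. Male-type ratios are set beside some of the named genes, but not beside all that they moved by over 1.5 times. The operation, the animals and the handling of each library cannot be told apart. The cells of WT PNX and sham shared 25 barcodes.

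By markers, general capillary cells numbered 1375 in WT PNX and 2372 in sham, aerocytes 622 in WT PNX and 814 in sham, venous cells 412 in WT PNX and 375 in sham, arterial cells 167 in WT PNX and 141 in sham, and lymphatic cells 59 in WT PNX and 162 in sham. A further 377 WT PNX and 576 sham cells formed a cluster led by immediate early genes, and 170 WT PNX and 75 sham cells an unnamed cluster led by Fabp4, Col15a1, Selp and Ackr1. A level over all cells can differ because a class takes a larger share of them, so levels within classes are given where they part from the whole.

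Of 3956 genes at 50 CPM or more in WT PNX or sham, 60 (1.52%) lay at least 2-fold higher in WT PNX on this log2 scale and 57 (1.44%) at least 2-fold lower, and the median log2 ratio of all measured genes was 0.04. Among the higher genes with the largest ratios were platelet genes, the interferon-inducible Ifi204, the venular receptor Ackr1 and the matrix genes Eln, Col15a1 and Fbln5. Among the lower ones were Ccl3, Ccl4 and Gzmb, whose UMIs lay in 1 small sham cluster, the transcription factor Sox11, and MHC genes.

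**Figure D1:**
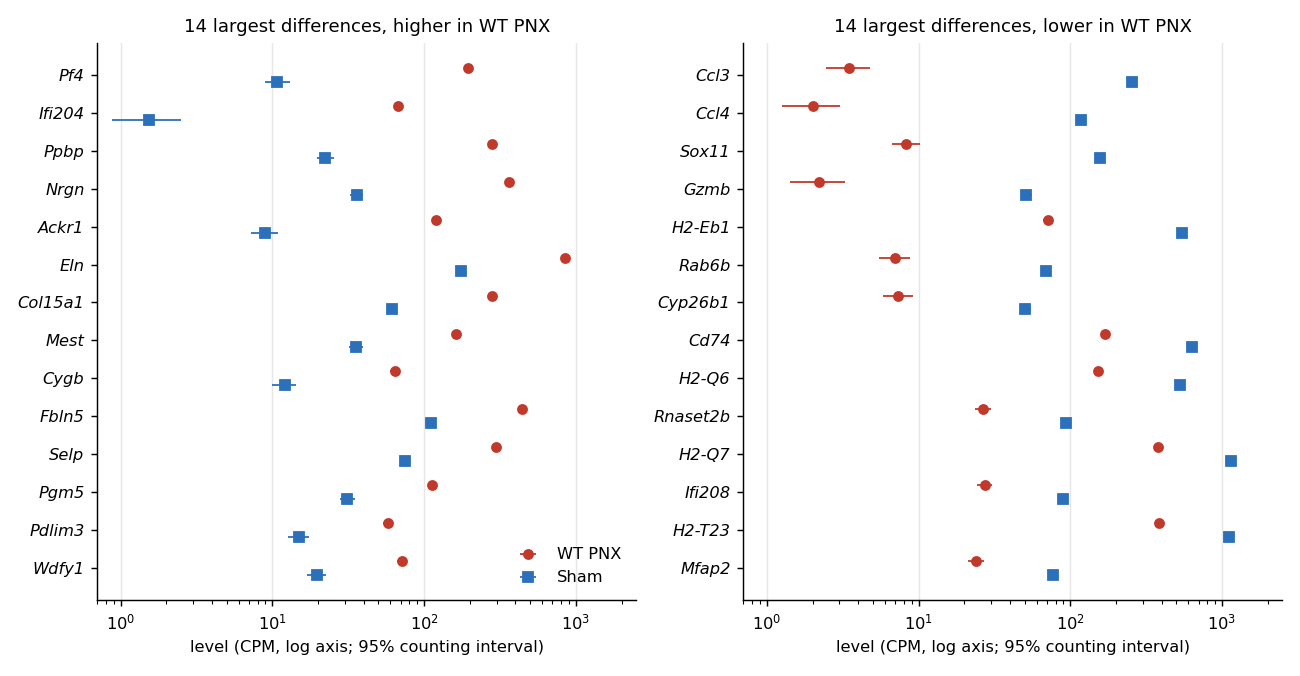
Levels (CPM, log axis, with 95% counting intervals) in WT PNX (circles) and sham (squares) of the 14 genes with the largest ratio in each direction that kept their direction in general capillary cells, aerocytes and male-type cells. Ifi204 stands at 67.7 CPM in WT PNX against 1.54 in sham, and Sox11 at 8.26 CPM in WT PNX against 157 in sham.

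Gene lists were read at a lower bar, where a gene was measured at 10 CPM in WT PNX or sham and called higher or lower at 1.5-fold on the same log2 scale. Over all 8980 measured genes, 541 (6.02%) were higher and 391 (4.35%) lower by this rule, and each list's share is to be read against these. Subsets of cells hold fewer UMIs and have shares of their own. By the same rule, of all measured genes 6.75% were higher and 4.76% lower in general capillary cells, 6.02% were higher and 5.41% lower in aerocytes, 10.4% were higher and 9.49% lower in venous cells and 17.5% were higher and 15% lower in arterial cells. Of all measured genes 7.75% were higher and 7.26% lower in male-type cells of both libraries, 5.41% were higher and 4.16% lower in the endothelial clusters alone and 5.02% were higher and 3.88% lower with the classes weighted to their sham shares. The lists with the highest medians held DNA replication, metalloproteinase, basement membrane and sterol synthesis genes. Those with the lowest held MHC class II, MHC class I, HIN-200 and glucocorticoid-responsive genes, of which the HIN-200 list lost this place in cells with at most 5% mitochondrial UMIs (median −0.00359).

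**Figure D2:**
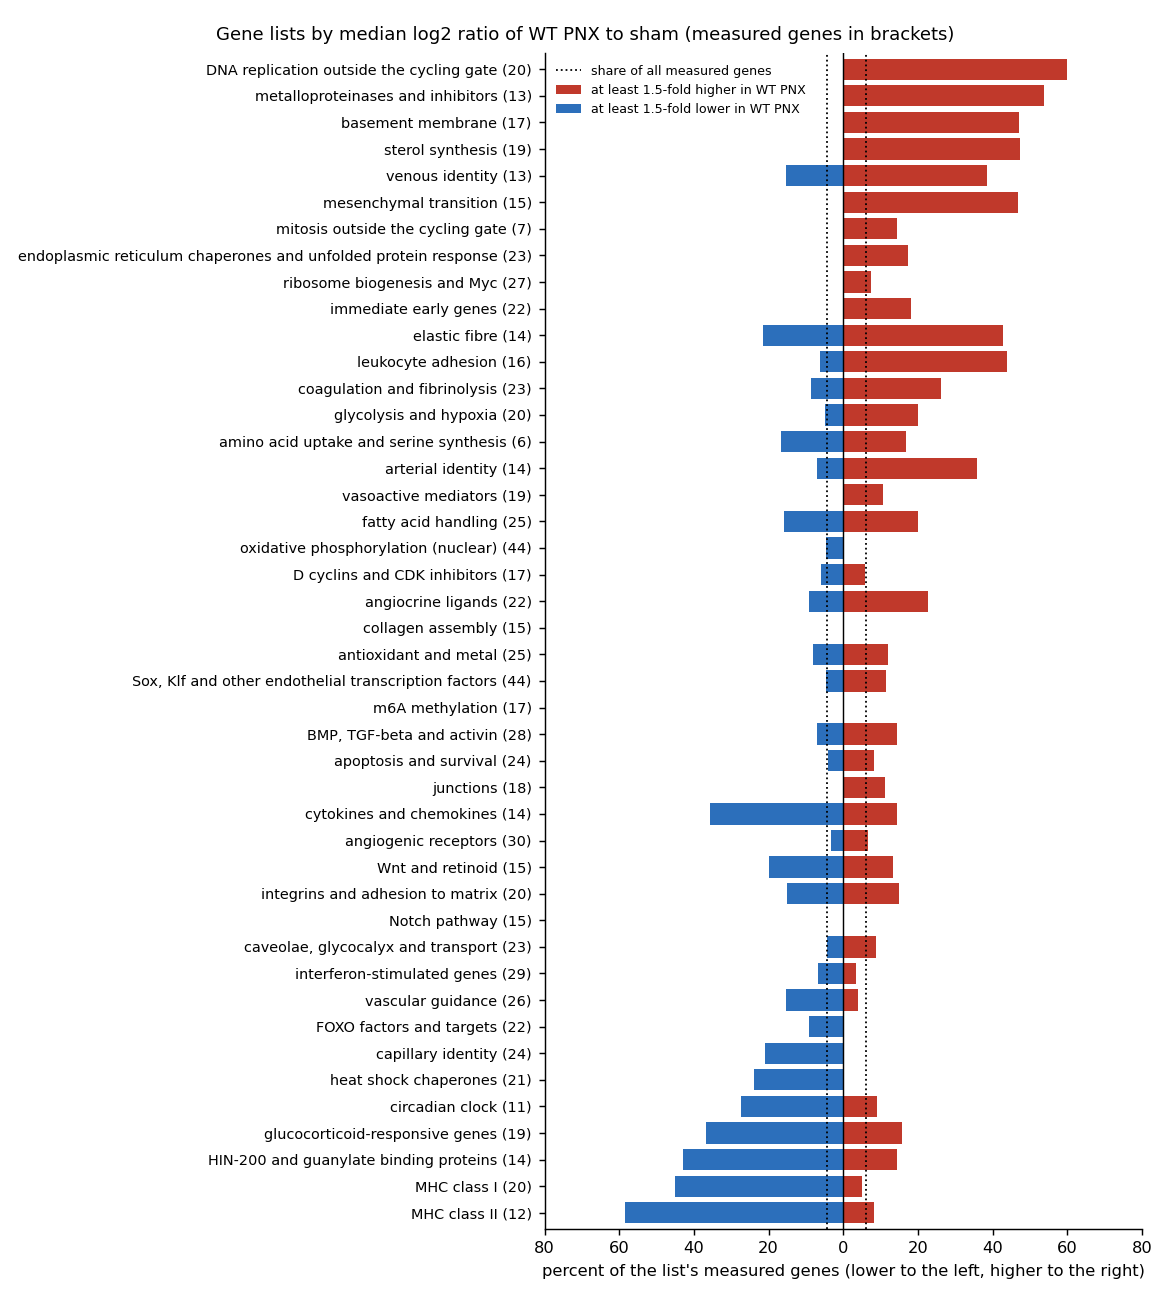
Percent of each list's measured genes that were at least 1.5-fold higher (right) or lower (left) in WT PNX than in sham, with lists ordered by median log2 ratio and the shares of all 8980 measured genes (6.02% and 4.35%) as dotted lines. DNA replication stands at the top with 12 of 20 genes higher, and MHC class II at the bottom with 7 of 12 lower.

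Cells that passed as resting held more transcript of the DNA replication machinery in WT PNX than in sham. Among the replication genes that the rule for cells did not use, 12 of 20 measured were higher and 0 lower (median 0.76). The MCM genes encode the ring-shaped helicase that is loaded on DNA before S phase. E2F factors are known to drive replication genes through sites of the form TTTNGCGC, and the bases before the RefSeq starts of Mcm5 and Mcm6 are shown because both hold this motif (build GRCm38.p6, 200 bases up to the start, capitals mark matches on either strand, which overlap where the run is longer than the motif). They lie at chr8:75109309-75109508 on the plus strand and chr1:128359706-128359905 on the minus strand:

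Mcm5: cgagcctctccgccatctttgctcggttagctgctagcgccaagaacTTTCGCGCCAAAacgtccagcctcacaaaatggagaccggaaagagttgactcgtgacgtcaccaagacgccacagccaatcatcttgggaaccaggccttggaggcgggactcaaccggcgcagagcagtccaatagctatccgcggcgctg
Mcm6: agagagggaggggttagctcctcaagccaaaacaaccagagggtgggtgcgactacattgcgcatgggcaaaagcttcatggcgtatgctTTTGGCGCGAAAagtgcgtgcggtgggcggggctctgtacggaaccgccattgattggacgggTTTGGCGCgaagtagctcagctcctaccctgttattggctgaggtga

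The motif is held by 1.13% of all 32851 promoter windows of 250 bases, and by 5 of the 26 listed replication genes with a window (Dnmt1, Mcm5, Mcm6, Pola1 and Uhrf1). A match describes the letters and is no measure of binding.

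Mcm5 stood at 36.9 CPM (33.4 to 40.7) in WT PNX against 10.1 (8.26 to 12.2) in sham, a ratio of 3.65-fold (2.94 to 4.57). Mcm6 stood at 66.4 CPM (61.7 to 71.5) in WT PNX against 32.6 (29.2 to 36.3) in sham, a ratio of 2.04-fold (1.79 to 2.32). The other helicase subunits were higher too. Mcm2 stood at 31.7 CPM in WT PNX against 14.3 in sham, Mcm3 at 65.8 CPM in WT PNX against 36.3 in sham, Mcm4 at 29.3 CPM in WT PNX against 13.3 in sham and Mcm7 at 27.7 CPM in WT PNX against 13.9 in sham. The log2 ratios of all 6 thus ran from 0.78 to 1.47. Cdt1, which loads the helicase, stood at 17.4 CPM in WT PNX against 3.75 in sham. Hells, a chromatin remodeller of dividing cells, stood at 13.6 CPM in WT PNX against 1.35 in sham, the largest ratio of the measured list. Lig1, which joins the pieces of the lagging strand, stood at 29.2 CPM in WT PNX against 13.8 in sham, and Dut, which keeps uracil out of DNA, at 27.8 CPM in WT PNX against 12.8 in sham. Pcna, the sliding clamp of the polymerases, stood at 228 CPM in WT PNX against 143 in sham and was the most abundant member. Close to their sham level were Rrm1, a ribonucleotide reductase subunit, at 25.3 CPM in WT PNX against 22.9 in sham, and Rfc2, of the clamp loader, at 31.7 CPM in WT PNX against 29.8 in sham.

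Within general capillary cells 17 of 21 measured were higher and 0 lower (median 0.91), and Mcm5 stood at 42.6 CPM in WT PNX against 7.47 in sham. Within aerocytes 4 of 18 measured were higher and 0 lower (median 0.41), and Mcm5 stood at 20.8 CPM in WT PNX against 8.83 in sham. Venous cells had 9 of 18 higher and arterial cells 7 of 15, where 10.4% and 17.5% of all measured genes were. No member was called lower in any of the 4 classes. With every cell that held even 1 mitotic UMI left out, 3100 WT PNX and 4562 sham cells remained, and 10 of 19 members were higher (median 0.68), against 5.96% of all measured genes. Among the cells with exactly 1 mitotic UMI, 329 in WT PNX and 74 in sham, 22 of 25 were higher (median 1.03), against 20.5% of all measured genes. In male-type cells of both libraries 14 of 19 were higher (median 0.76).

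Cell cycle genes outside replication passed the bar less widely, a difference that was not tested. The rule for cells leaves cells out by their mitotic transcripts. The contrast of mitotic with replication genes therefore cannot be read as a trait of the cells. Of mitotic genes that the rule did not use, 1 of 7 was higher, the condensin gene Smc2 at 29.4 CPM in WT PNX against 11.9 in sham. Cdkn1a (p21), an inhibitor of cell cycle entry, stood at 461 CPM (448 to 474) in WT PNX against 792 (775 to 809) in sham, with log2 −1.04 in general capillary cells and −0.73 in aerocytes. The median of the 17 measured D cyclins and CDK inhibitors was 0.09, with 1 at least 1.5-fold higher, the cell cycle factor E2f3 at 10.8 CPM in WT PNX against 5.49 in sham, and 1 at least 1.5-fold lower, Cdkn1a.

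Genes of cholesterol synthesis also stood higher. SREBP2 is known to switch them on together when membrane sterol runs low. Among the sterol genes 9 of 19 measured were higher and 0 lower (median 0.52). Idi1, which makes an isoprenoid building block, stood at 48.5 CPM (44.5 to 52.9) in WT PNX against 20.8 (18.1 to 23.8) in sham, a ratio of 2.34-fold (1.99 to 2.75). The early enzyme Hmgcs1 stood at 64.2 CPM in WT PNX against 35.5 in sham. Further down the pathway Fdps stood at 61.3 CPM in WT PNX against 31.4 in sham and Sqle at 17.9 CPM in WT PNX against 6.83 in sham. Enzymes from the start to the sterol-forming steps were therefore higher, by unequal amounts. Insig1, the sensor that restrains the pathway, stood at 55.3 CPM in WT PNX against 28.2 in sham. The factor gene Srebf2 itself stood at 106 CPM in WT PNX against 102 in sham.

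In general capillary cells 10 of 19 sterol genes were at least 1.5-fold higher (median 0.59), where 6.75% of all measured genes were. In aerocytes 5 of 18 were (median 0.14), against 6.02% of all genes. In venous cells 7 of 20 were (median 0.53), against 10.4%, and in arterial cells 13 of 18 (median 1.16), against 17.5%. No sterol gene was 1.5-fold lower in these classes. The differences between classes were not tested. In the other PNX libraries Idi1 stood at 16.4 in M3cKO PNX and 49.7 in Foxo1cKO PNX (CPM). This order follows the presence of female-type cells, so genotype, animals and sex cannot be told apart in it.

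**Figure D3:**
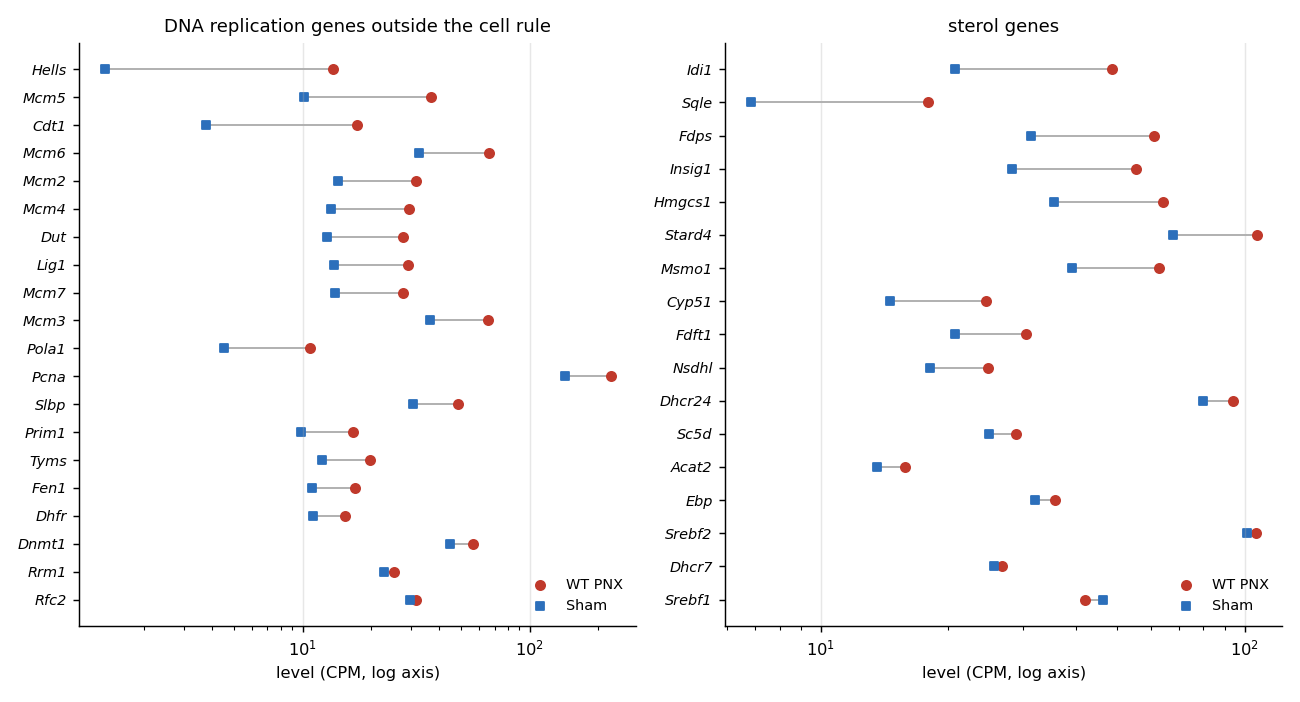
Levels (CPM, log axis) of DNA replication genes outside the cell rule (left) and sterol genes (right) in WT PNX (circles) and sham (squares), ordered by ratio. The replication genes shown lie higher in WT PNX, from Rfc2 (31.7 CPM in WT PNX against 29.8 in sham) to Hells (13.6 CPM in WT PNX against 1.35 in sham), and Srebf1 (42.1 CPM in WT PNX against 46.3 in sham) is the only sterol gene shown that lies lower.

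Secretory and growth genes differed by smaller steps. Among chaperones and sensors of the endoplasmic reticulum 4 of 23 measured were higher and 0 lower (median 0.32). Hspa5 (BiP), the main folding chaperone there, stood at 789 CPM (773 to 806) in WT PNX against 479 (466 to 493) in sham. Manf, a secreted stress protein, stood at 221 CPM in WT PNX against 132 in sham, Sdf2l1 at 35.7 CPM in WT PNX against 20.2 in sham and Hyou1, a large chaperone, at 36.1 CPM in WT PNX against 22 in sham. Among ribosome biogenesis genes and Myc 2 of 27 measured were higher and 0 lower (median 0.29), a share near that of all genes but with a median above it. The 2 higher ones were Myc itself, a driver of growth, at 28.4 CPM in WT PNX against 16.4 in sham and Odc1, the first enzyme of polyamine synthesis, at 109.7 CPM in WT PNX against 65.6 in sham. Fbl, a methyltransferase of ribosomal RNA, stood at 54.2 CPM in WT PNX against 35.1 in sham.

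Basement membrane genes, which encode the sheet under the endothelium, stood higher: 8 of 17 measured were higher and 0 lower (median 0.56). Col15a1, a collagen that bridges this sheet to the fibres beneath, stood at 282 CPM (272 to 292) in WT PNX against 61.2 (56.5 to 66.2) in sham, a ratio of 4.6-fold (4.22 to 5.02). Col18a1, whose end is released as endostatin, stood at 106 CPM (100.3 to 113) in WT PNX against 32.4 (29.1 to 36.1) in sham. These 2 were the largest steps of the list beside Vwa1, a matrix protein, at 28.4 CPM in WT PNX against 7.12 in sham. The network collagen Col4a1 stood at 2133 CPM in WT PNX against 1444 in sham and its partner Col4a2 at 1724 CPM in WT PNX against 1259.7 in sham. Sparc, a collagen-binding glycoprotein, stood at 3383 CPM in WT PNX against 1892 in sham, and its relative Sparcl1 at 449.8 CPM in WT PNX against 255 in sham. Laminins did not share one direction: Lamb1 stood at 29.5 CPM in WT PNX against 12.5 in sham, Lama5 at 45.3 CPM in WT PNX against 60.3 in sham and Lamb2 at 57.4 CPM in WT PNX against 75.9 in sham.

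Within general capillary cells 7 of 12 measured were higher and 0 lower (median 0.66). Col15a1 stood there at 174 CPM in WT PNX against 50.6 in sham, and in the Fabp4-Col15a1 cluster at 1537 CPM in WT PNX against 1046 in sham. That cluster held 42.8% of the Col15a1 UMIs of WT PNX and 33.8% of those of sham. The platelet cluster held 1.076% of those of WT PNX and 1.415% of those of sham. Its Col15a1 level lies above the general capillary level in sham and below it in WT PNX. The source of the general capillary Col15a1 UMIs was not tested. Sparc stood at 4333 CPM in WT PNX against 2490.2 in sham in general capillary cells. Within aerocytes 6 of 12 measured were higher and 0 lower (median 0.53). Within venous cells 7 of 15 measured were higher and 0 lower (median 0.45), and within arterial cells 2 of 16 measured were higher and 3 lower (median 0.02). The list's median was thus above 0 in both capillary classes and in veins and near 0 in arterial cells. In male-type cells 10 of 18 measured were higher and 0 lower (median 0.62).

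Elastic fibre genes parted, with 6 of 14 higher and 3 lower (median 0.27). Eln, the elastin monomer, stood at 852 CPM (835 to 869) in WT PNX against 176 (168 to 184) in sham, a ratio of 4.85-fold (4.61 to 5.10). Fbln5, which ties elastin to microfibrils, stood at 443 CPM (430.2 to 455) in WT PNX against 111 (104 to 117) in sham, a ratio of 4.00-fold (3.75 to 4.27). Fbln2, another fibulin, stood at 139 CPM in WT PNX against 51.9 in sham. On the other side Mfap2, a microfibril protein, stood at 24 CPM (21.2 to 27.1) in WT PNX against 77.3 (72.0 to 82.8) in sham. Ltbp4, which binds latent TGF-beta and guides elastin assembly, stood at 206 CPM in WT PNX against 356 in sham. Core elastin and fibulin genes thus lay opposite to those 2 microfibril partners, while Fbn1, the main microfibril protein, stood at 47.6 CPM in WT PNX against 23.8 in sham.

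Eln was highest in veins and arteries. Its level in venous cells was 3362 CPM in WT PNX against 583 in sham. In arterial cells it was 2292 CPM in WT PNX against 563 in sham, in general capillary cells 238 CPM in WT PNX against 132 in sham and in aerocytes 85.7 CPM in WT PNX against 41.5 in sham. In the platelet cluster, which is led by genes of other cells, Eln stood at 171 CPM in WT PNX against 139 in sham. The capillary levels lie near or below this and are not read as expression there. Cells of that cluster passed the same endothelial rule, so its levels are a mark of caution and no measured floor, here and elsewhere. Venous cells held 64.4% of its UMIs in WT PNX and 31.8% in sham. Fbln5 was highest in arterial cells, at 2349.6 CPM in WT PNX against 877 in sham. In venous cells Fbln5 stood at 1659 CPM in WT PNX against 540.0 in sham and in general capillary cells at 27.5 CPM in WT PNX against 7.23 in sham. The general capillary levels of Fbln5 lie below those of the platelet cluster and are not read as expression there. In the other PNX libraries Eln stood at 319 in M3cKO PNX and 833 in Foxo1cKO PNX (CPM). Fbln5 stood there at 122 in M3cKO PNX and 397 in Foxo1cKO PNX. For both genes Foxo1cKO PNX lay near WT PNX and M3cKO PNX between WT PNX and sham. M3cKO PNX and sham are also the libraries without female-type cells, so genotype, animals and sex cannot be told apart in this order. Within WT PNX, Fbln5 stood at 655 CPM in male-type against 378 in female-type WT PNX cells.

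Among metalloproteinases and their inhibitors 7 of 13 measured were higher and 0 lower (median 0.61). The sheddase Adam10, which cuts receptors and ligands off the cell surface, stood at 169 CPM (161 to 177) in WT PNX against 108 (101 to 114) in sham. The sheddase Adam17 stood at 85.3 CPM in WT PNX against 54.3 in sham, and Adam19 at 30.7 CPM in WT PNX against 13.6 in sham. Adamts9, a secreted protease, stood at 71.5 CPM in WT PNX against 42.4 in sham, and Mmp14, a membrane-bound collagenase, at 58.1 CPM in WT PNX against 38.5 in sham. The proteases named were thus higher, while of the inhibitors Timp3 stood at 642 CPM in WT PNX against 926 in sham and Timp2 at 687 CPM in WT PNX against 813 in sham. Collagen-modifying enzymes had 0 of 15 higher and 0 lower. Integrins and adhesion genes went both ways, with 3 higher and 3 lower of 20. Itga2, the alpha chain of a collagen receptor, stood at 232 CPM (223 to 241) in WT PNX against 106 (99.5 to 112) in sham, Itgb3, of the vitronectin receptor, at 40.5 CPM in WT PNX against 15.3 in sham and Itga1, of another collagen receptor, at 550 CPM in WT PNX against 894 in sham. In the endothelial clusters alone the log2 ratio of Itgb3 was 0.13, against 1.16 over all cells.

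In the mesenchymal transition list 7 of 15 measured were higher and 0 lower (median 0.49), but its leading members were high in other cells. The 80 cells of the platelet cluster held 74.8% of the Myl9 UMIs of WT PNX (Myl9, a myosin light chain, at 38.5 CPM in WT PNX against 8.18 in sham). Col3a1, a fibre collagen, stood at 37.5 CPM in WT PNX against 9.05 in sham and was 33.0 times as high in cells with a blood, epithelial or fibroblast marker as in the cells taken. Fn1 (fibronectin) stood at 59.9 CPM in WT PNX against 24.4 in sham, with the same quotient at 10.4. Among the cells taken, venous cells held 75.55% of the Col3a1 UMIs in WT PNX and 65.96% in sham. The cells with a marker were chosen in part by Col1a1 and Col1a2 UMIs, which bears on the quotient of a fibre collagen. Col3a1 is also among the 9 fibroblast markers summed above. In the endothelial clusters alone the log2 ratio of Myl9 was 0.52, against 1.72 over all cells. In male-type cells it was 0.52, and that of Col3a1 0.93, against 1.60 over all cells. The part of such cells in these levels was not tested.

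Several genes of venules were higher over all cells. Ackr1, which binds chemokines on venules, stood at 119 CPM (113 to 126) in WT PNX against 8.95 (7.22 to 11) in sham, a ratio of 13.3-fold (10.8 to 16.6). It had few UMIs outside veins and the Fabp4-Col15a1 cluster, which held 60.2% and 38.4% of its UMIs in WT PNX. Within venous cells Ackr1 stood at 439.7 CPM in WT PNX against 45.2 in sham, and within that cluster at 583 CPM in WT PNX against 224 in sham. Selp (P-selectin), which catches leukocytes, stood at 295 CPM (285 to 306) in WT PNX against 74.5 (69.3 to 79.9) in sham, and in venous cells at 895 CPM in WT PNX against 436 in sham. In male-type cells of both libraries Ackr1 stood at 251 CPM in WT PNX against 6.23 in sham and Selp at 386 CPM in WT PNX against 56.4 in sham, larger steps than over all cells. For Ackr1 and Selp the ratio was smaller within veins than over all cells. Venous cells made up 12.0% of the WT PNX and 8.09% of the sham cells, a description only, since such genes also shaped the clusters.

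Other genes of the same cells were Cygb (cytoglobin), at 64.6 CPM (59.9 to 69.6) in WT PNX against 12.0 (10.01 to 14.3) in sham, and in venous cells at 351 CPM in WT PNX against 104 in sham. Pgm5, a protein of adherens sites, stood at 113 CPM in WT PNX against 31.2 in sham, and in venous cells at 592 CPM in WT PNX against 214 in sham. Pdlim3, a protein of the actin skeleton, stood at 58.1 CPM in WT PNX against 14.9 in sham, and in venous cells at 228 CPM in WT PNX against 44.2 in sham. Ptgs2 (cyclooxygenase 2), which makes prostaglandin precursors, stood at 208 CPM (199.7 to 217) in WT PNX against 72.0 (66.9 to 77.3) in sham, and in venous cells at 1201 CPM in WT PNX against 459.5 in sham. Venous cells held 94.2% of the Ptgs2 UMIs in WT PNX and 61.1% in sham, where the Ccl3-Gzmb cluster held 33.3%. In the endothelial clusters alone Ptgs2 stood at 223 CPM in WT PNX against 48.5 in sham (log2 2.09, against 1.47 over all cells). These genes were higher within veins as well as over all cells.

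The leukocyte adhesion list had 7 of 16 measured genes higher and 1 lower over all cells (median 0.21). With the classes weighted to their sham shares it had 5 higher and 1 lower (median 0.01). Vcam1, a ligand of leukocyte integrins, stood at 156 CPM (149 to 164) in WT PNX against 70.2 (65.2 to 75.4) in sham. In venous cells it stood at 625 CPM in WT PNX against 485 in sham (log2 0.36). General capillary levels were 14.2 CPM in WT PNX against 2.80 in sham (log2 1.30). These lie near or below the platelet cluster and are not read as expression there. Sele (E-selectin) stood at 26.1 CPM in WT PNX against 4.43 in sham. Icam2, an adhesion molecule of resting endothelium, stood at 289 CPM in WT PNX against 427 in sham and Esam, a junction protein, at 658 CPM in WT PNX against 935 in sham. The venous identity list had a median of −0.07 with the same weighting, against 0.50 over all cells.

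Arterial genes also stood higher over all cells, with 5 of 14 at 1.5-fold and 1 lower. Gja4, a connexin of arterial gap junctions, stood at 314 CPM (303 to 325) in WT PNX against 152 (145 to 159.8) in sham, with log2 1.22 in general capillary cells and 0.93 in arterial cells. The connexin Gja5 stood at 75.6 CPM in WT PNX against 35.3 in sham, with log2 1.70 in male-type cells, against 1.00 over all cells. Mgp, an inhibitor of calcification and of BMPs, stood at 720.1 CPM in WT PNX against 289 in sham. Arterial cells were 167 in WT PNX and 141 in sham, and within them Mgp stood at 5411 CPM in WT PNX against 5427 in sham, so the step over all cells was not seen there.

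Some of the largest ratios lay in clusters led by genes of other cells. Pf4, a chemokine stored in platelets, stood at 195 CPM (187 to 204) in WT PNX against 10.8 (8.87 to 13.0) in sham, Ppbp, another, at 279.5 CPM in WT PNX against 22.3 in sham, and Nrgn, also high in platelets, at 364 CPM in WT PNX against 35.9 in sham. The 80 WT PNX cells of the platelet cluster held 83.1%, 87.9% and 79.7% of these UMIs. In the endothelial clusters alone the log2 ratio of Pf4 was 1.83, against 3.66 over all cells. The chemokine Ccl3 stood at 3.49 CPM in WT PNX against 255 in sham, the chemokine Ccl4 at 2.02 CPM in WT PNX against 118 in sham and the granzyme Gzmb, made by cytotoxic cells, at 2.20 CPM in WT PNX against 51.3 in sham. The 45 sham cells of 1 cluster held 94.9%, 95% and 94.2% of these sham UMIs. Without such clusters the log2 ratios were −1.52 for Ccl3, −0.99 for Ccl4 and −0.61 for Gzmb, against −4.93, −4.13 and −2.97. With the endothelial clusters alone 54 genes were 2-fold higher and 53 lower, against 60 and 57 over all cells.

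Antigen presentation stood lower in WT PNX, but not in every gene. MHC class II molecules show peptides to CD4 T cells, and lung capillary endothelium carries them in mice. Class I molecules show peptides from inside the cell to CD8 T cells. The bases before the starts of 4 lower genes and of H2-D1, which stood higher, are shown for comparison (RefSeq, build GRCm38.p6, 120 bases up to the start, capitals mark CTGATTGG, a form of the Y box of MHC promoters, on either strand). They lie at chr17:34305747-34305866 (plus strand), chr17:34287824-34287943 (minus), chr17:35424730-35424849 (plus), chr17:36032702-36032821 (minus) and chr17:35262974-35263093 (plus):

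H2-Eb1: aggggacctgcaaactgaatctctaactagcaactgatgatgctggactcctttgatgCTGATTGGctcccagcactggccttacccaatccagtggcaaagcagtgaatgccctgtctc
H2-Aa: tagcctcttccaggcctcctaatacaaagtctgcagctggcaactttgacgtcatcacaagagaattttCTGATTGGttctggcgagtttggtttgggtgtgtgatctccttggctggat
H2-Q6: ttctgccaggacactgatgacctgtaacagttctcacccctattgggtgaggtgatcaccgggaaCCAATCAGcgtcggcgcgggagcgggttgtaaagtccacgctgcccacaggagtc
H2-T23: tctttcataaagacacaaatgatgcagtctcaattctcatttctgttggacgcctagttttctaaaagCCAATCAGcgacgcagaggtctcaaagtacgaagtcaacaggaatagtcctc
H2-D1: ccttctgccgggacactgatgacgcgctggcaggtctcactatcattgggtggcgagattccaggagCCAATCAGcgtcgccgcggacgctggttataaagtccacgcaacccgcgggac

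The motif began 51 to 62 bases before the start in these 5 genes. It is held by 3.83% of all promoter windows of 250 bases and by 9 of the 24 listed MHC genes with a window. It stands before H2-D1 as before the 4 lower genes.

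Among class II genes 1 of 12 measured was higher and 7 lower (median −0.86). H2-Eb1, a class II beta chain (ENSMUSG00000060586, chromosome 17, 34305867 to 34316674, plus strand), stood at 71.0 CPM (66.1 to 76.2) in WT PNX against 544 (529.6 to 558) in sham, 7.65-fold (7.10 to 8.26) lower. Cd74, the invariant chain that guides class II molecules, stood at 169.5 CPM (162 to 177) in WT PNX against 636 (620.4 to 651) in sham, 3.75-fold (3.56 to 3.95) lower. H2-Aa, a chain of the other class II molecule, stood at 476 CPM in WT PNX against 944 in sham and its partner H2-Ab1 at 491 CPM in WT PNX against 1063 in sham. These chains differed by a smaller ratio than H2-Eb1. H2-DMa, which helps load peptide, stood at 8.99 CPM in WT PNX against 42.7 in sham, and Ciita, the master regulator of class II genes, at 20.7 CPM in WT PNX against 37.8 in sham. The higher member was Ctss, a protease of antigen-presenting cells, at 28.0 CPM in WT PNX against 2.89 in sham, with 31.5% of its WT PNX UMIs in 1 cell and log2 0.74 in the endothelial clusters alone, against 2.06 over all cells. In the endothelial clusters alone 7 of 10 were lower and 0 higher (median −1.40).

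H2-Eb1 was lower in general capillary cells, and its smaller levels in aerocytes and veins were lower too. General capillary cells held 37.6% of the H2-Eb1 UMIs in WT PNX and 64.3% in sham, and had H2-Eb1 at 86.0 CPM in WT PNX against 848 in sham. In aerocytes H2-Eb1 stood at 35.0 CPM in WT PNX against 154 in sham, and in venous cells at 29.2 CPM in WT PNX against 442 in sham. H2-Aa stood at 582 CPM in WT PNX against 1421 in sham in general capillary cells and at 179 CPM in WT PNX against 254 in sham in aerocytes. The platelet cluster, with 64972 of the 10391130 sham UMIs, held 0.956% of the sham H2-Eb1 UMIs. The aerocyte levels of both genes and the venous levels of H2-Eb1 lie below those of that cluster in both libraries. In sham, however, the H2-Eb1 level of that cluster lies close to that of general capillary cells. The cluster is thus no measured floor. The aerocyte and venous levels are not read as expression there, and their source was not tested. In the other PNX libraries H2-Eb1 stood at 381 in M3cKO PNX and 58.2 in Foxo1cKO PNX (CPM), so Foxo1cKO PNX lay near WT PNX and M3cKO PNX nearer to sham. The libraries part in the same way by female-type cells, so genotype, animals and sex cannot be told apart here.

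Among class I and peptide loading genes 1 of 20 measured was higher and 9 lower (median −0.45). The non-classical H2-Q6 stood at 152 CPM (145 to 159.8) in WT PNX against 529 (515 to 543) in sham, 3.48-fold (3.29 to 3.67) lower. Its near copy H2-Q7 stood at 378 CPM in WT PNX against 1137 in sham, and H2-T23, also non-classical, at 386 CPM (374 to 398) in WT PNX against 1112 (1092 to 1133) in sham. The classical chains differed from each other: H2-K1 stood at 3393 CPM in WT PNX against 4562 in sham, and H2-D1 at 6661 CPM in WT PNX against 4752 in sham. H2-D1 thus lay higher in WT PNX, though under 1.5-fold, and the member past that bar was the non-classical H2-T24 at 19.2 CPM in WT PNX against 9.14 in sham. B2m, the chain they share, stood at 5576 CPM in WT PNX against 7238 in sham. The peptide transporter gene Tap1 stood at 125 CPM in WT PNX against 225 in sham, its partner Tap2 at 44.6 CPM in WT PNX against 78.1 in sham, and Nlrc5, the regulator of class I genes, at 20.8 CPM in WT PNX against 34.5 in sham. H2-Q6 and H2-Q7, like H2-K1 and H2-D1, are close copies, and the counting may split or drop their reads.

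Within the WT PNX library MHC levels also differed between cells by sex transcripts. H2-Eb1 stood at 109.6 CPM in female-type against 21.7 in male-type WT PNX cells, a ratio of 5.05 (3.84 to 6.75), and at 476 in male-type sham cells. H2-T23 stood at 543 CPM in female-type against 182 in male-type WT PNX cells, a ratio of 2.98 (2.70 to 3.30), and at 1063 in male-type sham cells. H2-Q6 stood at 191 CPM in female-type against 98.0 in male-type WT PNX cells, and at 496 in male-type sham cells. For these genes the male-type WT PNX cells stood farther from sham than the female-type cells of the same library, and both stood below sham. H2-D1 stood at 5754 CPM in female-type against 7154 in male-type WT PNX cells, and at 4541 in male-type sham cells, which is the reverse order. Median depths were 2566 UMIs per cell in female-type and 3759 in male-type WT PNX cells, and the 1900 WT PNX cells without any sex transcript are in neither. All classes were pooled in both sets. Bmp6, mostly in general capillary cells, stood at 507 CPM in female-type against 344 in male-type WT PNX cells. Vwf, mostly venous, stood closer, at 2113 against 2225. The part of class make-up in this and the other comparisons by sex transcripts was not tested.

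**Figure D4:**
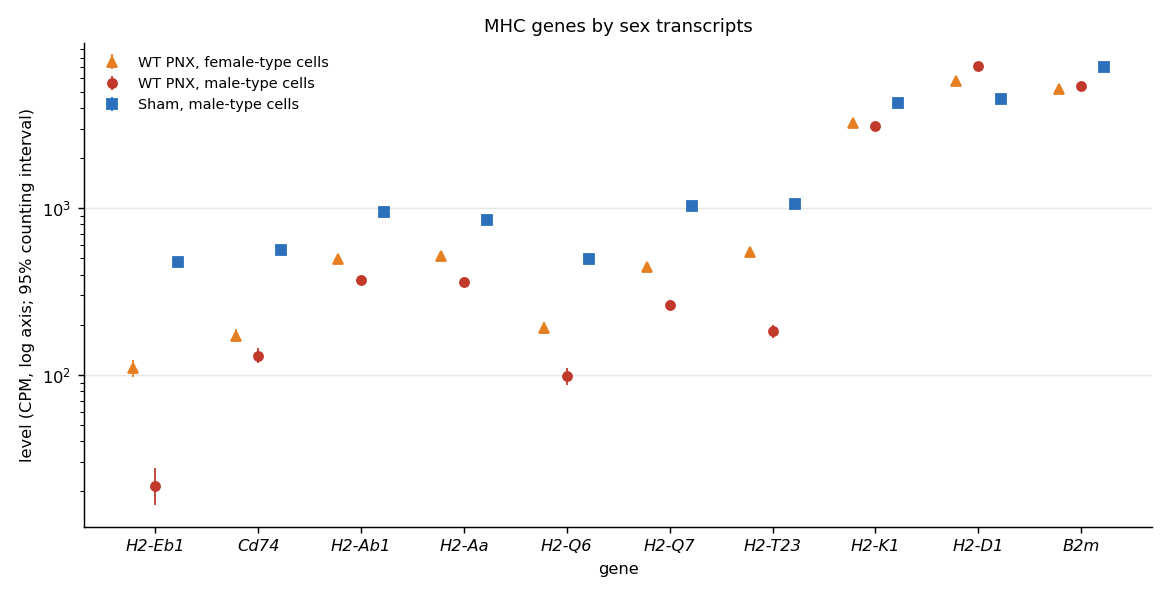
Levels (CPM, log axis, with 95% counting intervals) of MHC genes in female-type (triangles) and male-type (circles) WT PNX cells and in male-type sham cells (squares). For H2-Eb1 they stand at 109.6, 21.7 and 476 CPM, and H2-D1 is the gene shown in which sham stands lowest.

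Single genes stood apart over all cells and in general capillary cells. Sox11, a transcription factor of embryonic tissues (ENSMUSG00000063632, chromosome 12, 27334264 to 27342574, minus strand), stood at 8.26 CPM (6.64 to 10.2) in WT PNX against 157 (149.6 to 165) in sham, 19.0-fold (15.4 to 23.8) lower. Its level was 14.8 CPM in WT PNX against 251 in sham in general capillary cells and 4.58 CPM in WT PNX against 64.5 in sham in aerocytes. The sham platelet cluster, with 64972 UMIs, held 0.674% of the sham Sox11 UMIs, a level above that of sham aerocytes. The aerocyte levels are thus not read as expression there. In the other PNX libraries Sox11 stood at 120.3 in M3cKO PNX and 95 in Foxo1cKO PNX (CPM), so WT PNX was the one library low in it. Ifi204, of the HIN-200 family of interferon-inducible DNA sensors (ENSMUSG00000073489, chromosome 1, 173747293 to 173766943, minus strand), stood at 67.7 CPM (62.9 to 72.8) in WT PNX against 1.54 (0.880 to 2.5) in sham, and at 1.19 in M3cKO PNX and 3.01 in Foxo1cKO PNX (CPM). WT PNX was the one library high in it. In WT PNX, Ifi204 stood at 90.6 CPM in male-type against 46.9 in female-type WT PNX cells, a ratio of 1.93 (1.56 to 2.40).

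The HIN-200 family did not share a direction. Ifi208 (ENSMUSG00000066677, chromosome 1, 173673675 to 173698395, plus strand), which lies near Ifi204, stood at 27.3 CPM (24.2 to 30.5) in WT PNX against 89.8 (84.1 to 95.7) in sham. Among the HIN-200 and guanylate binding protein genes 2 of 14 measured were higher and 6 lower (median −0.42), the higher ones being Ifi204 and Gbp9, a guanylate binding protein, at 120.4 CPM in WT PNX against 42.2 in sham. Within general capillary cells 5 of 15 measured were higher and 6 lower (median −0.30), and in cells with at most 5% mitochondrial UMIs 4 of 15 were higher and 5 lower, where of all measured genes 8.69% were higher and 6.76% lower. Among the interferon-stimulated genes 1 of 29 measured was higher and 2 lower (median −0.14), and in the endothelial clusters alone 1 of 28 was lower. Ifitm1, a membrane protein against viruses, stood at 5.51 CPM in WT PNX against 48.5 in sham, with 85.5% of its sham UMIs in the 45 cells of the Ccl3-Gzmb cluster. In the endothelial clusters alone it stood at 5.04 CPM in WT PNX against 6.88 in sham. Both families hold close copies whose reads can be split.

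Mest, an imprinted gene that is high in growing tissues, stood at 163 CPM (156 to 171) in WT PNX against 35.7 (32.2 to 39.5) in sham, a ratio of 4.58-fold (4.09 to 5.13). It stood at 382 CPM in WT PNX against 80.3 in sham in aerocytes and at 149 CPM in WT PNX against 23.8 in sham in general capillary cells. In WT PNX, Mest stood at 252 CPM in male-type against 89.9 in female-type WT PNX cells, a ratio of 2.80 (2.43 to 3.25), and at 40.7 in male-type sham cells. Rab6b, a GTPase of Golgi traffic, stood at 6.97 CPM (5.50 to 8.73) in WT PNX against 69.1 (64.1 to 74.3) in sham, and at 53.4 in M3cKO PNX and 5.84 in Foxo1cKO PNX (CPM), so M3cKO PNX lay near sham and Foxo1cKO PNX near WT PNX. This order too follows the presence of female-type cells, from which genotype cannot be told apart. Rnaset2b, a ribonuclease with a near-identical copy, stood at 26.6 CPM (23.6 to 29.9) in WT PNX against 93.2 (87.4 to 99.2) in sham, and in WT PNX at 41.9 CPM in female-type against 8.05 in male-type WT PNX cells. Its log2 ratio was −2.89 in male-type cells of both libraries, against −1.63 over all cells. For Wdfy1, a protein of endosomes, sham was the low library: it stood at 71.5 CPM (66.6 to 76.7) in WT PNX against 19.6 (17.0 to 22.5) in sham, and at 66.4 in M3cKO PNX and 67.9 in Foxo1cKO PNX (CPM).

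Wnt and retinoid genes went both ways: 2 of 15 measured were higher and 3 lower (median −0.07). Cyp26b1, which breaks down retinoic acid, stood at 7.34 CPM (5.82 to 9.14) in WT PNX against 50.5 (46.3 to 55.0) in sham, with 3.73 in M3cKO PNX and 5.93 in Foxo1cKO PNX (CPM), so sham was the one library high in it. Dhrs3, which turns retinal back to retinol, stood at 51.7 CPM in WT PNX against 113 in sham, with log2 −1.84 in male-type cells, against −1.06 over all cells. Apcdd1, an inhibitor of Wnt signalling, stood at 26.2 CPM in WT PNX against 7.03 in sham.

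**Figure D5:**
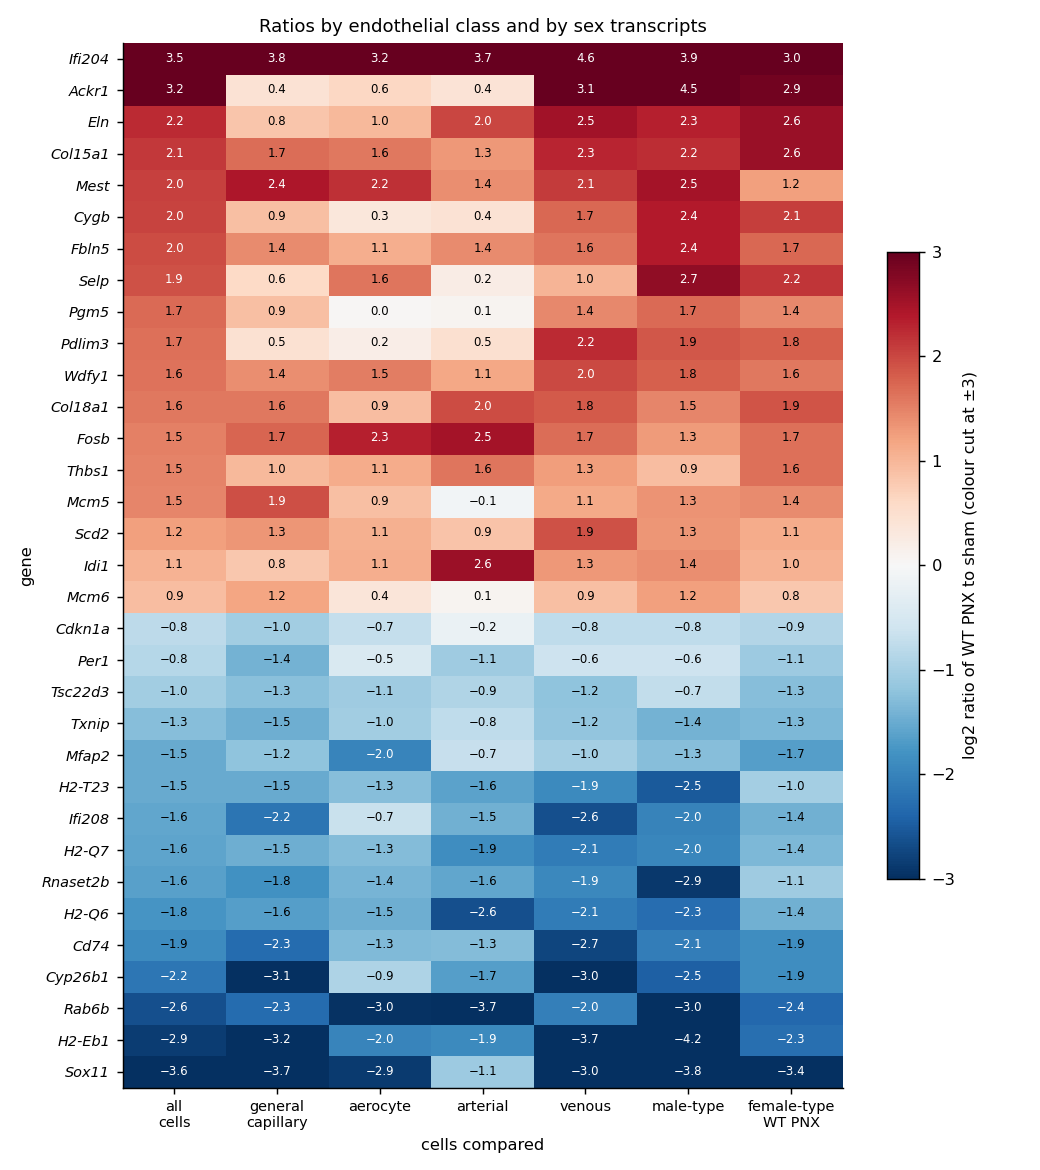
Log2 ratios of WT PNX to sham (colour and number, pseudocount 5 CPM) of named genes over all cells, in 4 endothelial classes, in male-type cells of both libraries, and in female-type WT PNX cells against all sham cells. Ifi204 and Mest are higher and Sox11, H2-Eb1 and Rab6b lower in every column, while Ackr1 is at 3.15 in venous cells and 0.44 in general capillary cells.

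Glucocorticoid-responsive genes leaned lower: 3 of 19 measured were higher and 7 lower (median −0.41), with a median of −0.64 in general capillary cells. Tsc22d3 (GILZ), a mediator of glucocorticoid action, stood at 118 CPM (112 to 125) in WT PNX against 248 (238 to 258) in sham. Klf9, a factor that glucocorticoids induce, stood at 272 CPM in WT PNX against 493 in sham, and Per1, a clock gene they also induce, at 59.6 CPM in WT PNX against 111 in sham. Others did not follow. Sgk1, a kinase named for serum and glucocorticoid, stood at 786 CPM in WT PNX against 420.4 in sham, and Fkbp5, a chaperone of the receptor, at 16.3 CPM in WT PNX against 12.7 in sham. In the clock list 1 of 11 measured was higher and 3 lower (median −0.29), with Nr1d1, a repressor of the clock, at 10.6 CPM in WT PNX against 29.2 in sham and Cry1, another repressor, at 25.1 CPM in WT PNX against 10.3 in sham. Clock genes change over the day, and the hour of collection is not given in the sources used here.

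Among heat shock chaperones 0 of 21 measured were higher and 5 lower (median −0.24). Hspa1b stood at 159.5 CPM in WT PNX against 448 in sham and its near-identical copy Hspa1a at 94.3 CPM in WT PNX against 218 in sham, Hspa1a with log2 −1.75 in male-type cells, against −1.17 over all cells. Hspb1, a small heat shock protein, stood at 221 CPM in WT PNX against 419 in sham. Of immediate early genes, which respond to stimuli within minutes and also to tissue digestion, 4 of 22 were higher and 0 lower. Fosb stood at 442 CPM (429.7 to 455) in WT PNX against 153 (145 to 160.2) in sham, Fos at 1761 CPM in WT PNX against 886 in sham and Egr1 at 804 CPM in WT PNX against 465 in sham. In male-type cells of both libraries the log2 ratio of Egr1 was −0.02, against 0.78 over all cells, and that of Fosb 1.27, against 1.5. The step in Egr1 was thus not seen in male-type cells, where the list's median was 0.03, against 0.27 over all cells.

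Angiocrine ligands, the secreted factors by which endothelium acts on its neighbours, went both ways: 5 of 22 measured were higher and 2 lower (median 0.08). Thbs1 (thrombospondin 1), an inhibitor of angiogenesis, stood at 122 CPM (116 to 129) in WT PNX against 40.2 (36.5 to 44.3) in sham. The platelet cluster held 22.6% of its WT PNX UMIs, and its log2 ratio was 1.23 in the endothelial clusters alone, against 1.49. Vegfa, the main growth factor of vessels, stood at 1031 CPM in WT PNX against 639 in sham. General capillary cells held 55.4% of its UMIs in WT PNX, and it stood there at 1839.6 CPM in WT PNX against 972 in sham. Edn1 (endothelin 1), a vasoconstrictor, stood at 485 CPM in WT PNX against 295 in sham. Within WT PNX, Edn1 stood at 686 CPM in female-type against 329.9 in male-type WT PNX cells, a ratio of 2.08 (1.92 to 2.25) and more than the step between the libraries, and at 277 in male-type sham cells. Ccn1, a matrix-bound signal, stood at 378 CPM in WT PNX against 222 in sham. Kitl, the ligand of Kit, stood at 558 CPM in WT PNX against 426 in sham, under the bar of 1.5-fold.

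BMP and TGF-beta genes had 4 of 28 higher and 2 lower. The ligand Bmp4 stood at 205 CPM (197 to 214) in WT PNX against 93.3 (87.5 to 99.3) in sham, and the ligand Bmp6 at 468 CPM (455 to 481) in WT PNX against 774 (757 to 791) in sham, so these ligands went opposite ways. For Bmp4 the log2 ratio was 0.75 with the classes weighted to their sham shares, against 1.10 over all cells. It was 1.19 in aerocytes and −0.31 in arterial cells. Fstl1, a secreted antagonist of BMPs, stood at 346 CPM in WT PNX against 161 in sham. Its log2 ratio was 0.54 with the same weighting, against 1.08 over all cells. Within classes it was 0.39 in general capillary cells, −0.24 in aerocytes, 0.76 in arterial and 0.87 in venous cells. Id2, a target of BMP signals, stood at 159.7 CPM in WT PNX against 74.5 in sham, with log2 1.44 in general capillary cells and 0.06 in aerocytes. Eng (endoglin), a co-receptor for BMP9, stood at 589.9 CPM (576 to 605) in WT PNX against 1002 (983 to 1021) in sham.

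Receptors stood nearer to their sham levels. Among angiogenic receptors 2 of 30 measured were higher and 1 lower (median −0.05), close to the share of all genes. Adgrg6, an adhesion receptor, stood at 177 CPM (169 to 185) in WT PNX against 62.6 (57.9 to 67.7) in sham, a ratio of 2.82-fold (2.58 to 3.09). Its log2 ratio was 0.84 with the classes weighted to their sham shares, against 1.43 over all cells. It was 0.86 in venous and 0.68 in arterial cells, where it was highest, 0.99 in general capillary cells and 1.32 in aerocytes. Unc5b, a netrin receptor, stood at 102 CPM in WT PNX against 65.2 in sham. The Notch list had 0 of 15 higher and 0 lower. Among guidance genes 1 of 26 measured was higher and 4 lower (median −0.14). Unc5b was the higher one, and the lower ones were led by Sema3f, a repulsive cue, at 138 CPM in WT PNX against 305 in sham, and Efnb1, an ephrin, stood at 139 CPM in WT PNX against 253 in sham.

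Capillary identity genes were lower in 5 of 24 cases and higher in 0 (median −0.17), but lower in 1 of 23 within general capillary cells. Cyp4b1, a cytochrome P450 of lung endothelium, stood at 383 CPM (371 to 395) in WT PNX against 1072 (1053 to 1093) in sham, with log2 −1.45 in general capillary cells and −1.18 in aerocytes. Its venous levels were 38.2 CPM in WT PNX against 309 in sham (log2 −2.86). These lie below those of the platelet cluster and are not read as expression there. Fibin, an aerocyte gene, had log2 −1.21 in aerocytes. Emp2, a membrane protein of aerocytes, stood at 636 CPM in WT PNX against 1133 in sham. Among the endothelial transcription factors 5 of 44 measured were higher and 2 lower (median 0.06). Foxc1, a factor of developing vessels, stood at 34.7 CPM in WT PNX against 15.3 in sham, Gata6 at 48.7 CPM in WT PNX against 26.9 in sham and Klf4, which responds to flow, at 1695 CPM in WT PNX against 2407 in sham.

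Rhoj, the small GTPase of the series' title (ENSMUSG00000046768, chromosome 12, 75308322 to 75401456, plus strand), stood at 281 CPM (272 to 292) in WT PNX against 315 (304 to 326) in sham, with log2 −0.39 in general capillary cells and −0.03 in aerocytes. In the other PNX libraries Rhoj stood at 338 in M3cKO PNX and 261 in Foxo1cKO PNX (CPM). Foxo1, for which 1 of the other groups is named, stood at 220.4 CPM (212 to 229) in WT PNX against 196 (187 to 204) in sham. Among FOXO factors and targets 0 of 22 measured were higher and 2 lower (median −0.15), with Txnip, a FOXO target that restrains glucose uptake, at 420.4 CPM (408 to 433) in WT PNX against 1026 (1006 to 1045) in sham. Near their sham levels stood genes of m6A methylation (0 of 17 higher or lower, median 0.06), nuclear oxidative phosphorylation (2 of 44 lower, median 0.09) and junctions (2 of 18 higher, median 0.00).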

How the data were processed

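Lung cells were profiled by droplet single-cell RNA sequencing in 4 libraries (Sham, WT PNX, M3cKO PNX, Foxo1cKO PNX). The authors deposited UMI counts as whole numbers, not normalized, for 32285 genes. Per the labels, reads were mapped to mm10 (the GRCm38 assembly) with Cell Ranger 2.1.1; per the file headers the software version is 3.0.0, and the submitters' processing notes also name R 3.4.4. Groups follow the sample titles.

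Cells, UMI sums and log2 ratios are defined in the report. Intervals are exact: Poisson for levels, conditional binomial for ratios. The median depth per cell and the summed UMIs set the precision. Some genes and 1 list are not reported here. Genes 2-fold apart were counted at 50 CPM or more, as a rule of size and not a test. The 45 gene lists, the cell rule and the comparison were chosen with earlier results of these data known. Named genes were the 14 with the largest ratio in each direction that kept their direction in general capillary cells, aerocytes and male-type cells, leaving out mitochondrial, ribosomal, haemoglobin, immunoglobulin, T cell receptor, sex-linked and numbered model genes and genes more than 5 times as high in excluded cells or with over 25% of UMIs in 1 cell, then up to 4 members of each list with the largest ratio at 20 CPM or more, Rhoj and Foxo1. Other list members are quoted as examples chosen after their values were seen.

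Clusters came from 2000 variable genes scaled within each library, 30 principal components, 20 neighbours and Leiden resolution 0.5, chosen after seeing which clusters could be named, with scanpy 1.11.5 in Python 3.11.15, and TMM factors from edgeR 4.0.16. Clustering without scaling within libraries split general capillary cells by library (56 and 2379, 1593 and 101 cells of WT PNX and sham). No doublets were removed in the main result, because Scrublet's own threshold marked 0 barcodes in sham and 357 in WT PNX. Gene positions are from GENCODE vM21 and promoter windows from RefSeq, matched by symbol.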

Additional observations from a re-analysis of the deposited data

Results flagged for a closer look

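Fabp4, a fatty acid binding protein of systemic and venous endothelium, went opposite ways in 2 classes of cells. Its log2 ratio was 0.90 in venous cells (1188 CPM in WT PNX against 637 in sham) and −1.24 in arterial cells (44.7 CPM in WT PNX against 112 in sham), which is a difference of 2.13. It was picked out because the ratio passed 1.5-fold upward in one class and downward in the other at 50 CPM or more. The arterial values rest on 28 UMIs in WT PNX and 40 in sham, each group was 1 library, and the difference between the classes was not tested.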

How the results depend on the processing

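The 60 higher and 57 lower genes at 2-fold became 134 and 88 from 20 CPM, 212 and 114 without a minimum, 92 and 93 in male-type cells, 129 and 136 in arterial, 93 and 91 in venous and 95 and 91 in male-type general capillary cells (the last 3 settings, and endothelial clusters alone, were added after seeing the data). The higher count was 35 with classes at their sham shares and 39 in aerocytes. Smaller subsets hold fewer UMIs, so counts in them carry more counting noise; the part of this in the counts was not tested. The other 38 counts, among them those with TMM or median-of-ratios scaling, at most 5% mitochondrial UMIs, thinning to 2000 UMIs and Scrublet scores removed, stayed within 1.5 times.

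Of the values of single genes and lists, 3186 stayed within their counting interval (for list medians, within a small fixed margin), 2152 moved beyond it with their sign kept or no call at stake, and 14 called values changed sign. In arterial cells these were Vcam1 (−0.074), Bmp4 (−0.31), Fibin (0.97), Mgp (−0.0042), Cpe (−0.71), Fabp4 (−1.24) and Ptgs2 (−0.30), in aerocytes Scd1 (−0.058) and Fstl1 (−0.24), and in venous cells Fn1 (−0.15). Mmrn1, a lymphatic gene, was at 0.53 in general capillary cells, 0.11 in male-type ones and 0.31 with clustering over both libraries, and Gzmb at 0.41 with sham class shares. The cause was not tested. No paired analysis was possible because each group holds 1 library.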

Other observations

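Genes of lipid use, clotting, transport and survival were not described above. In the fatty acid list 5 of 25 measured genes passed 1.5-fold upward and 4 downward. Fabp5, a fatty acid carrier, stood at 86.8 CPM in WT PNX against 25.1 in sham. In male-type cells its log2 ratio was 2.45, against 1.61 over all cells. Scd2, a desaturase, stood at 135 CPM in WT PNX against 54.2 in sham, with log2 1.33 in general capillary cells. On the other side Pnpla2, the lipase that opens stored fat, stood at 51.4 CPM in WT PNX against 104 in sham and Cpt1a, the gate of mitochondrial fatty acid oxidation, at 144 CPM in WT PNX against 217 in sham. In the clotting list 6 of 23 were higher and 2 lower. Procr, the receptor of protein C, stood at 33.5 CPM in WT PNX against 8.18 in sham. F5 (coagulation factor V) stood at 28.4 CPM in WT PNX against 2.98 in sham, with 83.2% of its WT PNX UMIs in the platelet cluster.

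Among transporters and chemokines, Slc6a6, which takes up taurine, stood at 448 CPM in WT PNX against 253 in sham and Abcb1a, a drug efflux pump, at 99.1 CPM in WT PNX against 177 in sham. Slc3a2, the heavy chain of amino acid carriers, stood at 635 CPM in WT PNX against 1189 in sham. Cx3cl1 (fractalkine) stood at 45.2 CPM in WT PNX against 126 in sham, and Ccl21a, a chemokine of lymphatics with a set of near copies, at 282 CPM in WT PNX against 633 in sham. In male-type cells the log2 ratio of Ccl21a was −1.94, against −1.15 over all cells. Lymphatic cells were 59 in WT PNX and 162 in sham. With the classes weighted to their sham shares the log2 ratio of Ccl21a was −0.07, so the step over all cells was not seen with that weighting. Xiap, an inhibitor of caspases, stood at 216 CPM in WT PNX against 109 in sham and Bcl2l1, which guards mitochondria against apoptosis, at 65.0 CPM in WT PNX against 119 in sham. Nos3, the endothelial nitric oxide synthase, stood at 102 CPM in WT PNX against 67.0 in sham. Hif1a, the oxygen-sensed factor, stood at 61.3 CPM in WT PNX against 33.1 in sham, Ldha at 166 CPM in WT PNX against 107 in sham, and Bpgm, which makes bisphosphoglycerate, at 79.1 CPM in WT PNX against 28.6 in sham. Bpgm stood at 13.4 in M3cKO PNX and 68.7 in Foxo1cKO PNX (CPM), an order that also follows the presence of female-type cells, from which genotype cannot be told apart. The metallothionein Mt1 stood at 38.3 CPM in WT PNX against 16.7 in sham, and Gpx1, a glutathione peroxidase, at 287 CPM in WT PNX against 181 in sham.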
